A study of Homo sapiens with 4 samples.

Results

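Tissue factor, its inhibitors, the thrombomodulin and protein C receptor pair, and the receptors that thrombin and related proteases cleave were followed in U87 cells with and without a hairpin against PTPRN. The set held 8 genes of the 16595 with a value: F3, TFPI, TFPI2, THBD, PROCR, F2R, F2RL1 and F2RL2. These genes were chosen by their FPKM in the same 4 libraries that are described here, so their values are a description of these libraries and carry no test. U87 is an established human glioma line. The labels give 2 libraries titled PTP2 with the genotype PTPRN knockdown and 2 titled SCR, taken here as the scrambled hairpin control. Both groups shared the line. The paper's general methods place its hairpins in the pLKO.1 vector. Its sequencing section does not name the control hairpin, so a vector shared by both groups is inferred. The paper lists more than 1 hairpin against PTPRN and does not say which was used for sequencing. Both knockdown libraries share the title PTP2, so that group may rest on 1 hairpin. Nothing in the labels says that the replicates were separate cultures, so the spread between them may be technical.

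Tissue factor, the product of F3, is the membrane protein that binds factor VIIa and starts blood coagulation. TFPI blocks that complex together with factor Xa, while TFPI2 is a related Kunitz-type inhibitor held in the extracellular matrix that acts mostly on plasmin, trypsin and similar proteases. Thrombin formed by the cascade is turned by thrombomodulin (THBD) into an activator of protein C, which the endothelial protein C receptor (PROCR) presents. Thrombin also cleaves F2R (the receptor PAR1) and F2RL2 (PAR3), and trypsin-like proteases and the complex of tissue factor with factor VIIa cleave F2RL1 (PAR2). In glioma, tissue factor is known from the clotting that surrounds these tumours, and silencing of TFPI2 has been described in many cancers.

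Values were FPKM (fragments scaled by transcript length in kilobases and by the mapped total of the library), which can be compared between genes because they are scaled by length. PTPRN, the targeted gene, had 12.1 and 11.7 FPKM with knockdown and 84.8 and 85.0 in the controls. The files hold no counts. From the steps that single reads leave in low FPKM values, a depth of about 17750000 to 19300000 reads per library was estimated. Of 12 astrocyte and glioma markers, 11 had a value, and they moved both ways: 2 rose and 3 fell by 2-fold or more with an adjusted p no higher than 0.001 (limma). VIM, at 4565 to 4766 FPKM with knockdown and 1918 to 1998 in the controls, and CD44 rose, while NES, SOX9 and CHI3L1 fell. GFAP stayed under 1 and S100B at or under 0.05 in all 4 libraries. CDKN2A was at or under 0.05 and MTAP at or under 0.34, both from the locus that U87 lacks. The growth protocol recorded with the samples names hCMEC/D3, a brain endothelial line. Of the 12 endothelial markers examined, 10 had a value, and their summed FPKM was 4.14 and 4.80 with knockdown against 4.10 in both controls. CDH5 and CLDN5 reached no more than 0.03.

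All 8 genes had values in all 4 libraries. The 5 genes of the tissue factor and protein C steps were higher with knockdown and the 3 receptor genes were lower. The groups did not overlap for any of the 8, as for 75.6% of all genes tested. A change of 2-fold or more on the log2(FPKM + 1) scale was reached by 4 of the 8, namely TFPI2, THBD, F2RL1 and F2RL2, against 7.83% of all genes. The median difference of the 8 genes was 0.60 on the log2(FPKM + 1) scale, and 0.01 over all genes tested. Because these libraries chose the genes, nothing is read from these shares.

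**Figure D1:**
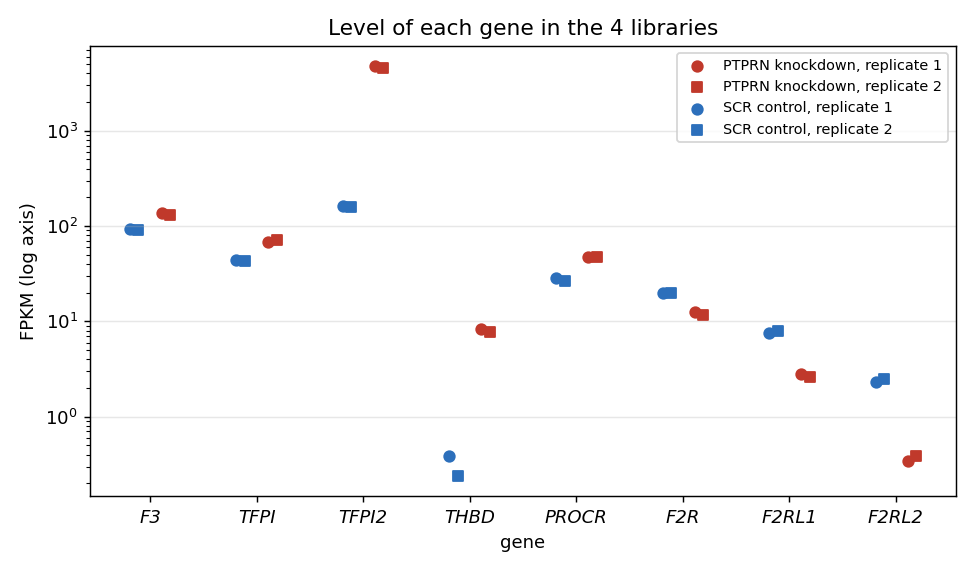
FPKM of the 8 genes (log axis) in the 2 PTPRN knockdown libraries (red) and the 2 SCR control libraries (blue), 1 point per library. TFPI2 stands above all others in both groups and reaches 4609 to 4737 with knockdown, and THBD moves from the lowest level in the controls to above F2RL1.

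F3 was expressed in every library. Its FPKM was 137 and 132 with knockdown and 94.3 and 91.7 in the controls. The mean was 134 ± 3.96 (SD, n = 2) with knockdown and 93.0 ± 1.88 (SD, n = 2) in the controls, a ratio of 1.44 and a difference of 0.53 on the log2(FPKM + 1) scale. Both knockdown libraries lay above both controls by more than the spread within either group, which may be technical. The gene (Gene ID 2152) lies on chromosome 1 from 94529176 to 94541857 on the minus strand (GRCh38). The deposited table lists 2 transcripts for it, and the membrane and the soluble, alternatively spliced form of tissue factor are not separated by these values.

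TFPI, the inhibitor of the factor VIIa complex, was at about the same ratio to F3 in both groups. It had 68.6 and 71.6 FPKM with knockdown and 44.3 and 43.3 in the controls. The means were 70.1 ± 2.11 and 43.8 ± 0.735 (SD, n = 2 each), a ratio of 1.60 and a log2 difference of 0.67. Within a library, TFPI stood at 0.50 and 0.544 times F3 with knockdown and at 0.470 and 0.472 times in the controls. Inhibitor and initiator were thus both higher with knockdown, and TFPI somewhat more so. The gene (Gene ID 7035, chromosome 2 from 187464230 to 187554505, minus strand) has 6 transcripts in the table, and the soluble and the membrane-anchored form of the inhibitor share 1 value. An antisense gene shares 118 of its 11714 exon bases.

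TFPI2 had the largest difference and the highest level of the 8 genes. Its FPKM was 4737 and 4609 with knockdown and 163 and 159 in the controls. The means were 4673 ± 91.0 and 161 ± 2.47 (SD, n = 2 each), a ratio of 29 and a log2 difference of 4.85, with 4.82 to 4.89 over the 4 pairs of a knockdown and a control library. The gap was many times the spread between replicates, which may be technical. TFPI2 took place 4 and place 3 among the 16595 genes by FPKM in the knockdown libraries, against places 366 and 367 in the controls. It made up 1.07% and 1.05% of the summed FPKM with knockdown and 0.0383% and 0.0379% in the controls. By its difference it was number 10 of all genes in the direction of knockdown.

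The proportion of the inhibitors to one another was therefore not the same in the 2 groups. TFPI2 stood at 1.72 and 1.74 times F3 in the controls and at 34.5 and 35.0 times with knockdown. Against TFPI it stood at 3.67 and 3.68 times in the controls and at 69.1 and 64.4 times with knockdown. These ratios are formed within a library, so 1 scaling factor per library cancels in them, which quantile normalization does not. The gene (Gene ID 7980) lies on chromosome 7 from 93885397 to 93890991 on the minus strand. In the GENCODE 29 annotation, 79 of its 2682 exon bases are shared with the antisense gene AC002076.1 and 44 with GNGT1, also on the opposite strand and with at most 0.08 FPKM in these libraries.

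The genes whose values over the 4 libraries lay closest to those of TFPI2, by Euclidean distance in log2(FPKM + 1) among 11264 genes whose mean FPKM reached 1, were CSF3 (distance 2.68), IL1B (2.85) and ANXA1 (3.35). CSF3, a granulocyte growth factor, had 1286 and 1320 FPKM with knockdown and 224 and 217 in the controls. IL1B, an inflammatory cytokine, had 2817 and 2782 against 43.5 and 42.8. ANXA1, a phospholipid-binding protein, had 1867 and 1796 against 630.5 and 616. All 3 were higher with knockdown and below TFPI2 in the knockdown libraries. They were picked by closeness to TFPI2 in these same libraries, so their being higher is not a separate result. Their log2 differences were 2.56, 5.99 and 1.55, against 4.85 for TFPI2.

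Short stretches of the promoters of TFPI2, F3 and F2RL2 are shown because these genes had the largest difference upward, the start of the pathway and the largest difference downward. RefSeq (GRCh38.p14) gave the 250 bases before the transcript start for 6 of the 8 genes. THBD and F2R had no entry. Each window of 30 bases below is read 5′ to 3′ on the strand of the gene, and capitals mark the match to the motif named. They lie at chr7:93890886-93890915 and chr7:93890852-93890881 for TFPI2, at chr1:94541951-94541980 and chr1:94541822-94541851 for F3 and at chr5:76623422-76623451 for F2RL2, all on the minus strand.
TFPI2, NF-kappa B consensus: tcaacttggcGGGGAATTCCtctccctctt
TFPI2, EGR1: agtttgcagcGCGGGGGCGgcggggtgaca
F3, AP-1: aatcactggggTGAGTCAtcccttgcaggg
F3, EGR1: gggaggagcgGCGGGGGCGggcgccggggg
F2RL2, AP-1: gaggcttggccTGAGTCAtgcttactgaag

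Every motif was searched on both strands. The NF-kappa B consensus was found in the window of TFPI2 alone among the 6, beginning 152 bases before the start. It is present in 9.96% of the 35116 promoter windows of that length. The EGR1 motif GCGGGGGCG was found in TFPI2 and F3 and in 4.72% of all windows. The AP-1 motif TGACTCA was found in F3 and F2RL2, in both as its reverse complement TGAGTCA, and in 4.2% of all. The GC box GGGCGG, which overlaps the EGR1 match in both genes, occurred in TFPI2, F3, PROCR and F2RL1 and in 42.6% of all, and TATAAA in F3 and PROCR and in 10.7% of all. Windows of F3, F2RL1 and TFPI2 held 34, 26 and 20 CpG, and those of PROCR, F2RL2 and TFPI held 5, 3 and 2, where the median window had 11. Both TFPI2, the gene with the largest difference, and F3, with the smallest, thus held an EGR1 match and GC boxes. A match describes the letters only. In the deposited table the outer end of each of these 6 genes lies inside its window, so part of a window may be transcribed. By those ends, both TFPI2 stretches and the EGR1 stretch of F3 lie wholly inside the gene. The stretch of F2RL2 lies partly inside.

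THBD went from almost no signal to a moderate level. It had 8.36 and 7.78 FPKM with knockdown and 0.39 and 0.24 in the controls. The means were 8.07 ± 0.41 and 0.315 ± 0.106 (SD, n = 2 each), a ratio of 25.6. The control values stand for about 30 and 17 reads and the knockdown values for about 596 and 553, so the ratio rests on few reads in the controls. On the log2(FPKM + 1) scale the difference was 2.79, and with a pseudocount of 0.1 it was 4.32, because the added 1 is larger than the control level. By its difference THBD was number 29 of all genes in the direction of knockdown. The gene (Gene ID 7056) has 1 transcript and lies on chromosome 20 from 23045633 to 23049664.

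PROCR, which shares the protein C step with THBD, was higher by less. It had 47.7 and 47.8 FPKM with knockdown and 28.8 and 26.4 in the controls. The means were 47.7 ± 0.0566 and 27.6 ± 1.65 (SD, n = 2 each), a ratio of 1.73 and a log2 difference of 0.77. PROCR exceeded THBD by 73.8 and 110 times in the controls and by 5.70 and 6.14 times with knockdown. The cofactor of the pair was thus far scarcer than its partner in the controls and less so with knockdown. In the deposited table, PROCR (Gene ID 10544) lies on chromosome 20 from 35171937 to 35177362 on the plus strand. In GENCODE it runs from 35172073 to 35216240 and shares 218 of 1696 exon bases with the antisense gene AL356652.1. Reads of the 2 cannot be told apart without strand.

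TFPI, THBD and PROCR are known as genes of endothelium, and F3 of stimulated monocytes. The endothelial markers given above were close in sum, but single markers moved both ways, with 3 higher and 1 lower at an adjusted p up to 0.05 (limma). ERG had 0.68 and 0.94 FPKM with knockdown and 0.07 in both controls, KDR and TEK were also higher, and PECAM1 had 1.21 and 1.26 against 2.39 and 2.5. Of 10 monocyte and macrophage markers, 8 had a value, with a summed FPKM of 6.95 and 6.43 with knockdown and 7.38 and 7.45 in the controls. CD14, at 0.22 and 0.35 against 0.89 and 0.80, and CSF1R were lower and FCER1G higher at an adjusted p up to 0.05 (limma). CSF1R had 1.96 and 2.17 FPKM with knockdown and 3.17 and 3.11 in the controls. LYZ had 2.93 and 1.67 against 2.26 and 2.35, and PTPRC 0.82 and 0.86 against 0.40 and 0.73. ITGAM was at or under 0.06 and SPI1 at or under 0.12. Of 9 megakaryocyte and platelet markers, 8 had a value, with sums of 5.81 and 6.19 against 12.5 and 11.2. That order rests on NFE2, at 0.27 and 0.85 FPKM against 9.77 and 8.64, and without it, a step added after the values were seen, the sums were 5.54 and 5.34 against 2.72 and 2.6. PF4 reached no more than 0.07. The part of other cells in the member values was not tested, and in bulk RNA fewer cells of a type and less RNA per cell cannot be told apart. PPBP, a chemokine of the platelet list, was at 2.82 and 2.48 with knockdown and listed at 0 in both controls. The order of the platelet sums without NFE2 rests largely on this gene.

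**Figure D2:**
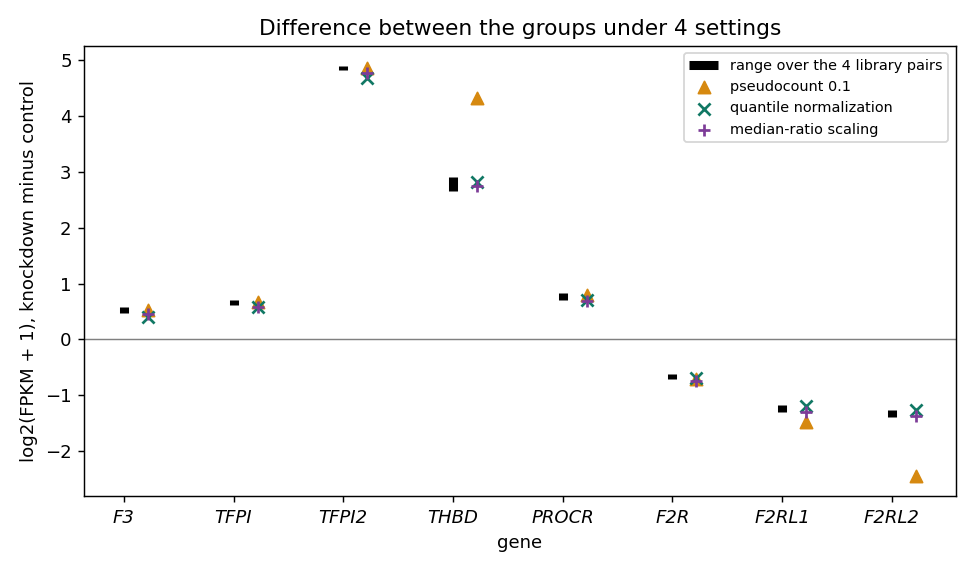
Difference of each gene, knockdown minus control, in log2(FPKM + 1). Black bars span the 4 pairs of a knockdown and a control library, and the symbols give the difference with a pseudocount of 0.1, quantile normalization or median-ratio scaling. No gene crosses 0, which for the bars and the pseudocount follows from groups that do not overlap. The pseudocount moves THBD from 2.79 to 4.32 and F2RL2 from -1.32 to -2.44.

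The receptor genes F2RL2, F2R and F2RL1 lie next to each other on chromosome 5 within 220257 bases, and all 3 were lower with knockdown. F2R, the main thrombin receptor of many cells, had 12.4 and 11.7 FPKM with knockdown and 19.8 and 19.7 in the controls. The means were 12.1 ± 0.502 and 19.8 ± 0.0778 (SD, n = 2 each), so the controls were 1.63 times higher, and the log2 difference was -0.67. Of the 3 receptors its difference was the smallest. It was larger than the spread between replicates, which may be technical. F2R (Gene ID 2149, plus strand) spans 76716043 to 76735780 and shares 39 of 4066 exon bases with an antisense gene.

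F2RL1, the receptor for trypsin-like proteases, had 2.82 and 2.62 FPKM with knockdown and 7.62 and 7.91 in the controls. The means were 2.72 ± 0.141 and 7.76 ± 0.205 (SD, n = 2 each), so the controls were 2.85 times higher, and the log2 difference was -1.24. The knockdown values correspond to about 145 and 135 reads and the control values to 426 and 407. The gene (Gene ID 2150, plus strand) spans 76818977 to 76835738, 83196 bases from F2R.

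F2RL2, which on some cells serves as a cofactor for thrombin cleavage of other receptors, had the lowest level of the 3. It had 0.34 and 0.39 FPKM with knockdown and 2.33 and 2.51 in the controls. The means were 0.365 ± 0.0354 and 2.42 ± 0.127 (SD, n = 2 each), so the controls were 6.63 times higher, from about 153 and 151 reads against 21 and 24. The log2 difference was -1.32, and -2.44 with a pseudocount of 0.1. The gene (Gene ID 2151, chromosome 5 from 76615482 to 76623434, minus strand) lies inside IQGAP2 on the opposite strand and shares 87 of its 3429 exon bases with it. IQGAP2 had 0.03 to 0.08 FPKM in all 4 libraries. On the other side of the cluster, S100Z had 0.65 and 1.00 FPKM with knockdown and 1.65 and 1.95 in the controls (log2 difference -0.62, adjusted p = 0.0169, limma).

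Together the 3 receptor genes summed to 15.6 and 14.8 FPKM with knockdown and to 29.8 and 30.1 in the controls. F2R made up 79.8% and 79.6% of that sum with knockdown and 66.6% and 65.4% in the controls. The share of F2RL1 was 18.1% and 17.8% against 25.6% and 26.2%, and that of F2RL2 was 2.18% and 2.64% against 7.82% and 8.33%. The receptor pool was thus smaller and more dominated by F2R with knockdown. F2RL3, the remaining receptor of the family (PAR4) and no member of the set, had 0.37 and 0.17 FPKM with knockdown and 0.26 and 0.17 in the controls (log2 difference 0.06, adjusted p = 0.642, limma).

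**Figure D3:**
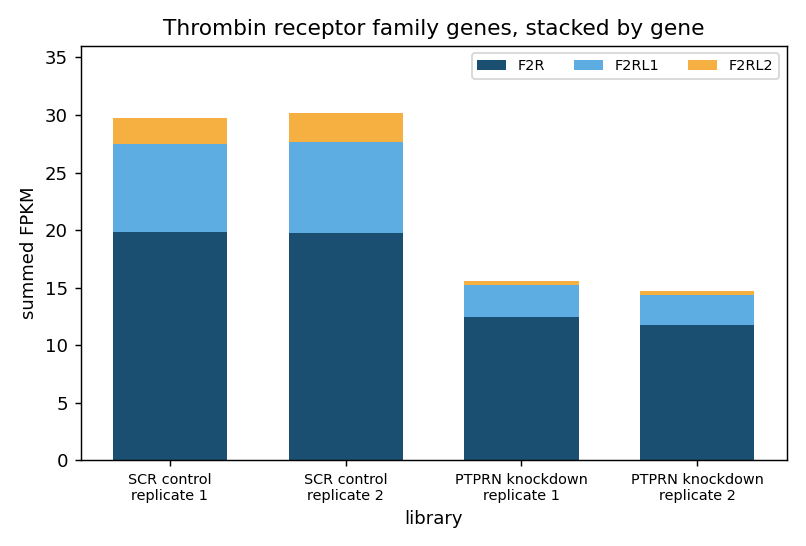
Summed FPKM of F2R, F2RL1 and F2RL2 in each library, stacked by gene, with the axis starting at 0. The sum is 29.8 and 30.1 in the controls and 15.6 and 14.8 with knockdown, and F2R is the largest part in all 4 libraries.

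Ordered by level, the controls ran TFPI2, F3, TFPI, PROCR, F2R, F2RL1, F2RL2 and THBD. With knockdown the order was TFPI2, F3, TFPI, PROCR, F2R, THBD, F2RL1 and F2RL2. In each group, both libraries of a gene lay above both libraries of the next, so no neighbours in the order overlapped. THBD alone changed its place relative to the others. F3 stood at 4.76 and 4.65 times F2R in the controls and at 11.02 and 11.2 times with knockdown.

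The genes that surround these 8 in coagulation and receptor signalling were taken from 8 lists of 127 genes, of which 116 had a value. They were tested with limma on log2(FPKM + 1) across all genes, and called where the change was 2-fold or more with an adjusted p no higher than 0.001. Of the 116, 4 rose (3.45%) and 7 fell (6.03%), against 2.63% and 4.06% of all genes tested. At an adjusted p up to 0.05 with no minimum fold, 29 rose (25.0%) and 36 fell (31.0%), against 30.8% and 27.1% of all genes. The calls at 0.001 were lost with the replicate number as a block, with a pseudocount of 0.1 and with any 1 library left out, each of which left 0 of the 116. All 11 genes kept their direction and an adjusted p up to 0.05 in each of those fits.

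**Figure D4:**
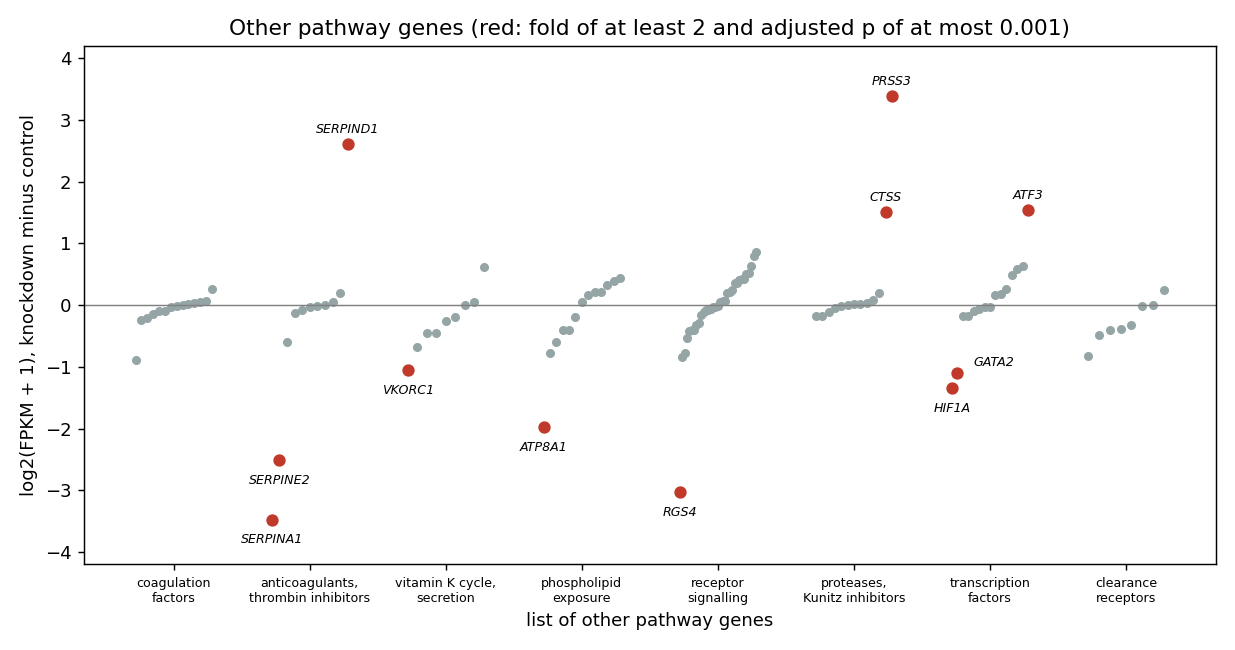
Difference in log2(FPKM + 1), knockdown minus control, of the 116 other pathway genes in 8 lists, 1 point per gene. Red points with names are the 4 genes that rose and the 7 that fell by 2-fold or more with an adjusted p no higher than 0.001 (limma), and grey points are the rest.

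The coagulation factors that feed thrombin to these receptors are made mostly in the liver, and U87 cells had little of their transcripts. Of 16 factors, 14 had a value and 13 of these stayed under 1 FPKM in all 4 libraries. F8, named after its values were seen, was the exception, at 8.73 and 9.61 FPKM with knockdown and 7.51 and 7.52 in the controls. F2, which encodes prothrombin, was listed at 0 in 3 libraries and at 0.03 in the other. F10 reached at most 0.26 and F7 had no value. None of the 14 was called at a fold of at least 2 and 0.001, while 1 rose and 2 fell at an adjusted p up to 0.05 and 3 had an unadjusted p under 0.05 (limma). VWF, the platelet-tethering factor also named after its values were seen, was among those that fell, at 0.06 and 0.05 FPKM against 0.98 and 0.93.

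Among 11 measured anticoagulants and thrombin inhibitors, 1 rose and 2 fell at the stricter call, and 1 and 4 at an adjusted p up to 0.05 (limma). SERPINE2, the cell-bound thrombin inhibitor protease nexin, had 111 and 115 FPKM with knockdown and 653 and 644 in the controls. Its log2 difference was -2.51 (SE 0.03, adjusted p = 1.49e-04, limma). SERPIND1, a heparin cofactor and another thrombin inhibitor, had 11.1 and 9.48 against 0.71 and 1.00, a log2 difference of 2.61 (SE 0.12, adjusted p = 5.44e-04, limma). It lies within PI4KA on the opposite strand, which had 17.0 and 17.2 FPKM against 23.8 in both controls. SERPINA1, which chiefly inhibits neutrophil elastase, had 0.58 and 0.66 against 17.4 and 16.6 (log2 difference -3.48, SE 0.04, adjusted p = 1.49e-04, limma). It also made up most of the 6 measured of 8 hepatocyte markers, which summed to 1.10 and 1.23 FPKM against 18.2 and 17.3, with ALB at or under 0.05. SERPINE2 stood at 4.02 and 4.05 times TFPI2 in the controls and at 0.0234 and 0.0249 times with knockdown. SERPINE2 was thus the more abundant of this pair in the controls and TFPI2 with knockdown. PROC, the protein C gene itself, was listed at 0 in both knockdown libraries and at 0.09 and 0.10 in the controls.

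Of 13 measured proteases and Kunitz inhibitors of the list around receptor cleavage, 2 rose and 0 fell at the stricter call, and at 0.05 the counts were 2 and 1 (limma). PRSS3, a trypsin, had 70.1 and 65.5 FPKM with knockdown and 6.15 and 5.06 in the controls (log2 difference 3.38, SE 0.10, adjusted p = 3.31e-04, limma). It has near-identical relatives in PRSS1 and PRSS2, which are listed without a value, so its reads are uncertain. CTSS, a cathepsin that can cleave F2RL1, had 40.2 and 39.99 against 13.2 and 13.7 (log2 difference 1.51, SE 0.03, adjusted p = 2.42e-04, limma). Both were higher in the libraries in which F2RL1 was lower, as is every gene higher with knockdown whose groups do not overlap. A link between them and F2RL1 was not tested. PRSS12 had 2.05 to 2.38 FPKM, and the other 10 of the list stayed under 1 in all libraries.

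The 33 genes of the receptor signalling list, which includes the receptor gene F2RL3, were mostly expressed, and the mean FPKM of 29 reached 1. Only RGS4, which shortens G protein signals, was called at the stricter threshold, and it fell from 15.7 and 16.3 to 0.84 and 1.33 FPKM (log2 difference -3.03, SE 0.13, adjusted p = 5.11e-04, limma). At an adjusted p up to 0.05, 13 of the 33 rose and 10 fell, with a median difference of -0.01.

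The remaining lists held genes of clotting factor modification, membrane lipids, transcription and clearance. VKORC1, which recycles vitamin K for the carboxylation of clotting factors, fell from 226 and 222 to 108 and 107 FPKM (log2 difference -1.06, adjusted p = 3.27e-04, limma), the only strict call among 9 genes, of which 1 rose and 5 fell at an adjusted p up to 0.05. In GENCODE it shares 761 of 2191 exon bases with a gene on the same strand and 1272 with one on the opposite strand, so its reads are uncertain. ATP8A1, a lipid flippase, fell from 5.27 and 5.69 to 0.62 and 0.66 (log2 difference -1.98, adjusted p = 2.49e-04, limma), the only strict call among 13, of which 4 rose and 6 fell at an adjusted p up to 0.05. Of 8 clearance receptors, 5 fell and 0 rose at an adjusted p up to 0.05, 0 reached the stricter call, and 5 had an unadjusted p under 0.05 (limma).

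Of 15 transcription factors known from the promoters of F3, THBD or TFPI2, 1 rose and 2 fell at the stricter call, and 7 rose and 3 fell at an adjusted p up to 0.05 (limma). ATF3, a stress-induced factor, rose from 7.26 and 6.71 to 23.1 and 21.5 FPKM (log2 difference 1.54, SE 0.06, adjusted p = 4.42e-04, limma). HIF1A, the oxygen-regulated factor, which shares 117 of 5151 exon bases with an antisense gene and 148 with a gene on the same strand, fell from 391.7 and 406 to 156 and 157 (log2 difference -1.34, SE 0.03, adjusted p = 2.76e-04, limma). GATA2 fell from 1.53 and 1.62 to 0.20 and 0.21 (log2 difference -1.09, SE 0.03, adjusted p = 3.44e-04, limma). EGR1, whose motif is printed above for TFPI2 and F3 and which was named after its values were seen, as were JUN, KLF2 and PRSS12, had 16.5 and 17.6 FPKM with knockdown and 12.2 and 11.5 in the controls (log2 difference 0.49, adjusted p = 0.00317, limma), under the fold needed for a call. JUN and KLF2 had adjusted p of 0.622 and 0.623, and an adjusted p above 0.05 does not show equal levels.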

How the data were processed

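Total RNA of U87 cells was sequenced by the authors as single-end reads on the BGISEQ-500. The deposited values are FPKM per gene, made by the authors, in 2 tables whose 66380 shared values were compared and of which 0 differed. The submitters' processing notes name HISAT2 2.1.0 and hg19, whereas gene positions in the table are those of GRCh38. The counting program, its annotation and its use of strand are not given in the sources used here. The authors' columns of means, fold changes and p-values hold their own comparisons and were not used.

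The genes and lists were chosen with earlier results of these data known. Of 19314 genes listed, 16595 had a value. All were fitted with limma 3.58.1 (R 4.3.3) on log2(FPKM + 1), knockdown against control, with Benjamini-Hochberg adjustment. A count test had been planned in case of counts, but the files held FPKM. The fold of low genes is understated by the pseudocount of 1. With 2 libraries a group, an exact permutation test cannot go below p = 0.333. Named outside the 8 were, from each list, up to 4 called genes of highest mean FPKM, then F2RL3, F2, F7, F10, PROC, SERPINE2, PTPRN, the coding neighbours of the F2R cluster and the 3 genes most like TFPI2, except where stated. The fit was tested on simulated data. Depth was estimated at 17750000 to 19300000 reads from the steps of 1 read in 776 to 807 genes with 1 transcript, of which 85.0% to 88.6% of values lay within 0.2 of a whole read, against 40% if uniform. Read numbers are therefore estimates, covering counting error only. For a gene with more than 1 transcript, such as F2RL2, they assume the length of the longest. Alternatives were another pseudocount, a minimum FPKM, a replicate block, an eBayes trend, other scalings and leaving out each library.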

Additional observations from a re-analysis of the deposited data

How the results depend on the processing

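None of the 56 alternative differences of the 8 genes changed sign. For leaving out a library and for the pseudocount this was fixed in advance, because the groups did not overlap for any of the 8. The median difference of the 8 genes, 0.60, became 0.50 with quantile normalization and 0.52 with median-ratio scaling. The median of all genes whose mean FPKM reached 1 moved from 0.0608 to 0.0442 and -0.008 with these scalings. Of the other pathway genes, 11 were called, and 65 at an adjusted p up to 0.05 with no minimum fold. The count was 0 with a pseudocount of 0.1, 0 with the replicate number as a block, and 0 to 0 with 1 library left out, when the lone library is assumed to vary like the other group. It was 11 with a minimum FPKM, an eBayes trend, quantile normalization and median-ratio scaling, and 12 with a pseudocount of 0.1 and an eBayes trend together, a setting chosen after seeing the data. Over all genes, limma in the fits with 0 calls also called 0 where it had called 1111, while 10185, 10108 and 8700 to 8790 genes had an unadjusted p under 0.05. Among the 116 pathway genes, 69, 70 and 61 to 67 did. At an adjusted p up to 0.05 with a change of 2-fold or more, a threshold chosen after seeing the data, 11 were called and 18 with a pseudocount of 0.1. Libraries with the same number deviated together with a correlation of 0.0635 over 11272 genes. With 2 libraries a group, this cannot settle whether a shared number marks a shared culture or batch. With few residual degrees of freedom, calls at 0.001 sit close to what the design can reach, and low genes such as THBD in the controls rest on few reads.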
